A study of Homo sapiens with 6 samples.

Results

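The CCT chaperonin, also called TRiC, is the folding machine of the eukaryotic cytosol, and the 8 genes that encode its subunits, TCP1, CCT2, CCT3, CCT4, CCT5, CCT6A, CCT7 and CCT8, were described here in melanoma cells exposed to a statin. The members were taken by symbol, as the genes that encode the complex. All 8 were found among 29790 genes in the deposited matrix, 1 line each, and all 8 were among the 14344 genes expressed highly enough to test. RNA had been sequenced from A375, an established human melanoma line, with 3 libraries of control cells and 3 of cells given fluvastatin, each set carrying the numbers 0 to 2. Fluvastatin cells received 3 µM of the drug, an inhibitor of HMG-CoA reductase in the mevalonate pathway, for 24 h. Control cells were grown alongside and are described as untreated, with no vehicle named, and both groups are the parental line. Whether the triplicates were grown as independent cultures is not stated, and the p-values below therefore reflect library-to-library spread that could be purely technical.

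The chaperonin is built from a pair of stacked rings, and each ring holds every subunit in a fixed order. ATP hydrolysis closes a lid over the central chamber, in which newly made actin, tubulin and many WD40 propeller proteins reach their folded state. Prefoldin hands unfolded actin and tubulin to the chamber, and phosducin-like proteins act as its cofactors. One side of the ring, formed by the products of CCT5, CCT2, CCT4 and TCP1, binds ATP tightly, and the other side, formed by those of CCT3, CCT6A, CCT8 and CCT7, binds it weakly.

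The 8 genes lie on 7 chromosomes of GRCh38, with only CCT4 and CCT7 on the same one, and are not a genomic cluster. Their longest annotated coding sequences in GENCODE release 29 run from 1593 bases in CCT6A to 1668 bases in TCP1, with 11 to 16 exons in those transcripts. Of the subunit genes, 5 start beside a protein-coding gene on the opposite strand, with GENCODE gene starts less than 1000 bases apart, whereas CCT2, CCT3 and CCT8 do not. Measured from the RefSeq start of CCT3 instead, TSACC on the opposite strand starts 978 bases away, inside CCT3, and it was below 1 FPKM in every library. The sequences before 3 subunit genes are given because they contrast a start region shared with such a neighbour (TCP1, where the stretch is the whole gap to MRPL18) with start regions that are not shared (CCT2 and CCT8). They come from RefSeq's promoter windows on GRCh38.p14, written 5′ to 3′ on the subunit's own strand, from chr6:159789750-159789811 for TCP1 (minus strand), chr12:69585209-69585333 for CCT2 (plus strand) and chr21:29073798-29073898 for CCT8 (minus strand). Capitals mark a CCAAT box, the motif CCAAT read on either strand.
TCP1: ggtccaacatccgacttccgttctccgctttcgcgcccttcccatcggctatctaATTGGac
CCT2: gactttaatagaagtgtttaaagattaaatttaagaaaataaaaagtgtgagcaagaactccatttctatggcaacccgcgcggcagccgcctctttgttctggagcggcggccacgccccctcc
CCT8: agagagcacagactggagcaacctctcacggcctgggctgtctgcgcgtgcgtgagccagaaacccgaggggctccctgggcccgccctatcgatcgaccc
The 62 bases between TCP1 and MRPL18 hold 1 CCAAT box, and 8.27% of all windows hold it in the same stretch. The 125 bases before CCT2 and the 101 bases before CCT8 hold none, against 15.5% and 12.5% of all windows in the same stretches. Over full windows of 300 bases, in which 34.6% of all windows hold a CCAAT box, it was found for 4 of the 7 subunits with a window (CCT2, CCT3, CCT8 and TCP1). CCT6A has no entry. The core of a heat shock element, GAANNTTC or TTCNNGAA, was found in windows of CCT2, CCT4 and TCP1 and in 13.5% of all windows. Some genes have more than 1 window, and the RefSeq starts behind the windows lie inside the GENCODE gene. The distance is 147 bases for TCP1, 149 for CCT8, 125 and 555 for CCT2, and 133 and 148 for CCT4. For CCT5, CCT7 and CCT3 it is 616, 888 and 29581 bases. The printed stretches thus end at the GENCODE start, short of the RefSeq start. The CCAAT boxes in the windows of CCT2 and CCT8 lie beyond the printed stretches. A match of letters is not a bound site.

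Levels are given as FPKM, a fragment count corrected for transcript length and for the number of mapped fragments, which allows genes to be compared. Depth was estimated from the commonest ratio between libraries among genes with a 0 in at least 1 library. It was 0.966 to 1.185 in the controls and 1.274 to 1.514 in the fluvastatin libraries, relative to 1 for control 0. The 2 ranges do not overlap, so that effects of sequencing depth and of the drug cannot be told apart. The trimmed mean of M-values gave scaling factors of 0.992 to 1.008, and mitochondrial genes took 0.646% to 1.046% of the control and 0.76% to 1.255% of the fluvastatin FPKM sum. Of 12 melanoma and melanocyte markers 10 were analysed, and their summed level was 190.0 to 220.0 FPKM in the controls and 252.4 to 273.6 FPKM with fluvastatin. SOX10, MITF, CSPG4, MCAM and PRAME were expressed, whereas the pigment genes PMEL, DCT and TYRP1 were below 1 FPKM in every library. So was S100B, which is no pigment gene, and S100A1 exceeded 1 FPKM only in control 0 (1.24 FPKM). Of 8 analysed markers of leukocytes, epithelium, endothelium and fibroblasts, all but ACTA2 were below 1 FPKM in every library, and CD14 was listed at 0 in 3 of 6. The summed level of those markers was 7.385 to 8.40 FPKM in the controls and 7.66 to 10.41 FPKM with fluvastatin. The ranges of the melanoma marker sum did not overlap, but its genes did not move together. SOX10 rose from 23.3 ± 2.99 to 72.0 ± 4.33 FPKM and CSPG4 from 24.5 ± 1.79 to 60.0 ± 1.31 FPKM, PRAME fell from 44.1 ± 1.81 to 26.5 ± 2.41 FPKM (SD, n = 3), and MITF and MCAM were not called. The part of the marker differences in the results below was not tested.

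All 8 subunit genes fell with fluvastatin, by between 1.35-fold for CCT2 and 1.61-fold for CCT4. The summed level of the 8 genes was 3054.8, 2832.2 and 2900.2 FPKM in control 0, 1 and 2 and 1888.1, 2086.5 and 2110.1 FPKM in fluvastatin 0, 1 and 2. The fluvastatin mean of 2028 ± 122 FPKM (SD, n = 3) was 69.2% of the control mean of 2929 ± 114 FPKM (SD, n = 3), and even the lowest control was 1.34 times the highest fluvastatin library. In each of the 8 genes all 3 fluvastatin libraries lay below all 3 controls, which was so for 22.9% of all genes tested, while 21.9% were higher without overlap. In limma on log2(FPKM + 1), with Benjamini-Hochberg adjustment over the 14344 genes and a threshold of 0.05, 8 of 8 fell, against 13.6% of all genes tested that fell and 14.1% that rose (27.7% in either direction). Of the 1107 genes that averaged 100 FPKM or more, as all the subunits did, 21.3% fell, 15.5% rose and 33.1% were lower without overlap. The median log2 fold change was -0.51 for the 8 genes and -0.01 for all genes tested. In bulk RNA, fewer cells that express a gene and less of its RNA per cell cannot be told apart. When estimated depth was added to the model, the 8 log2 fold changes lay between -0.75 and -0.38 with standard errors of 0.18 to 0.24. In that limma fit 0 of 8 passed (adjusted p = 0.154 to 0.324). Of the 14344 genes 61 passed, 12 lower (0.0837% of all genes tested) and 49 higher (0.342%). None of the genes in the lists described below passed in that fit.

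**Figure D1:**
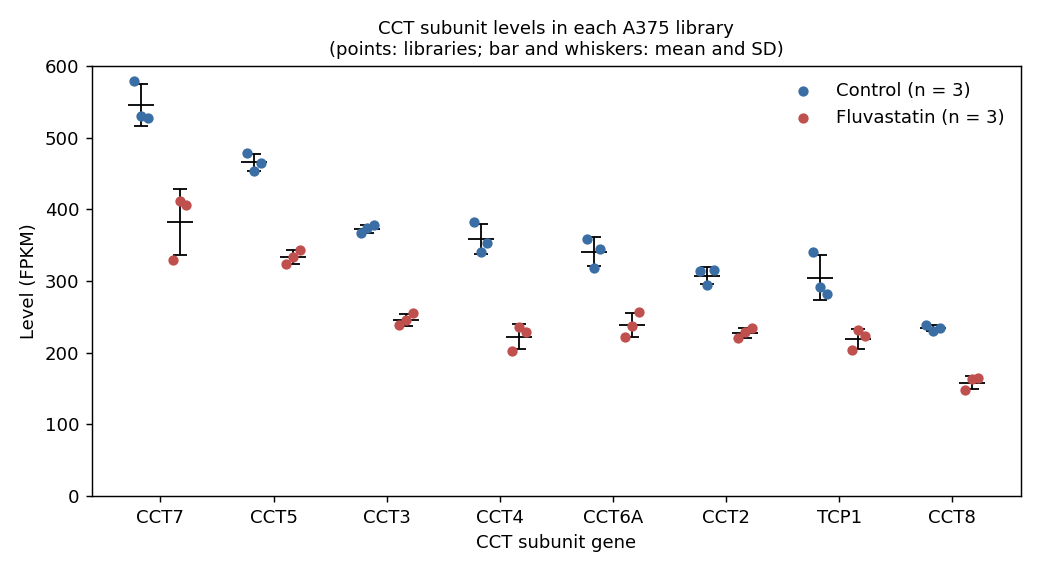
FPKM of each CCT subunit gene (vertical axis) in the 3 control libraries (blue) and the 3 fluvastatin libraries (red), with the mean and SD as bar and whiskers, in order of the control mean. Every red point lies below every blue point of the same gene, and CCT7 and CCT5 are the most abundant in both groups, from means of 545 and 466 FPKM in the controls to 383 and 333 FPKM.

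On the side of the ring that binds ATP tightly, CCT4 had the largest estimated fall and CCT2 the smallest, with overlapping intervals. CCT4 (ENSG00000115484.14; chromosome 2, 61868089 to 61888804, minus strand), the delta subunit, was at 382, 341 and 353 FPKM in control 0, 1 and 2 and at 203, 236 and 228 FPKM in fluvastatin 0, 1 and 2. The groups were far apart, with fluvastatin 0 lowest. It fell 1.61-fold, with a log2 fold change of -0.69 ± 0.10 (SE; 95% interval -0.92 to -0.45, adjusted p = 0.00437 in limma). CCT5 (ENSG00000150753.11; chromosome 5, 10249921 to 10266412, plus strand), the epsilon subunit, was at 478, 454 and 465 FPKM in the controls and at 324, 333 and 343 FPKM with fluvastatin. Both groups were tight, with SDs of 12.1 and 9.66 FPKM, and the fall was 1.40-fold (log2 fold change -0.48 ± 0.08, adjusted p = 0.00695). CCT2 (ENSG00000166226.12; chromosome 12, 69585334 to 69601570, plus strand), the beta subunit, was at 314, 294 and 315 FPKM in the controls and at 220.1, 229 and 234 FPKM with fluvastatin. Control 1 was the lowest control and still stood above all treated libraries, and the fall was 1.35-fold (log2 fold change -0.43 ± 0.08, 95% interval -0.63 to -0.24, adjusted p = 0.0111). TCP1 (ENSG00000120438.11; chromosome 6, 159778498 to 159789749, minus strand), the alpha subunit, was at 340.2, 291 and 282 FPKM in the controls and at 204, 231 and 223 FPKM with fluvastatin. Control 0 stood above the other controls, and TCP1 fell 1.39-fold (log2 fold change -0.47 ± 0.11, adjusted p = 0.0214). The TCP1 call was lost without control 0 (adjusted p = 0.0540), control 1 (0.0505), fluvastatin 0 (0.0739) or fluvastatin 2 (0.0585), over a range of 0.00623 to 0.294 across all settings.

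On the side that binds ATP weakly, the 4 genes fell by 1.43-fold to 1.51-fold. CCT3 (ENSG00000163468.14; chromosome 1, 156308968 to 156367873, minus strand), the gamma subunit, was at 366, 374 and 377 FPKM in the controls and at 238, 246 and 255 FPKM with fluvastatin. It was among the least variable of the 8 genes, with SDs of 5.80 and 8.30 FPKM, and fell 1.51-fold (log2 fold change -0.60 ± 0.08, 95% interval -0.78 to -0.41, adjusted p = 0.00326). CCT8 (ENSG00000156261.12; chromosome 21, 29055805 to 29073797, minus strand), the theta subunit, was at 238, 229.7 and 235 FPKM in the controls and at 147, 163 and 164 FPKM with fluvastatin. It was the lowest of the 8 genes in every library, and it fell 1.48-fold (log2 fold change -0.57 ± 0.08, adjusted p = 0.00517). CCT6A (ENSG00000146731.10; chromosome 7, 56051630 to 56063989, plus strand), the zeta subunit, was at 358, 319 and 345 FPKM in the controls and at 223, 237 and 256 FPKM with fluvastatin. The fall was 1.43-fold (log2 fold change -0.51 ± 0.10, adjusted p = 0.0105), and the groups stayed apart although both spread more than those of CCT3. CCT7 (ENSG00000135624.15; chromosome 2, 73233420 to 73253021, plus strand), the eta subunit, was the highest of the 8 genes in every library, at 579, 529.7 and 528 FPKM in the controls and at 329.8, 412 and 406 FPKM with fluvastatin. Fluvastatin 0 stood well below the other treated libraries, and CCT7 fell 1.43-fold (log2 fold change -0.52 ± 0.11, adjusted p = 0.0191). That call was lost without control 0 (adjusted p = 0.0574) or control 1 (0.0501), over a range of 0.00517 to 0.214 across all settings.

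**Figure D2:**
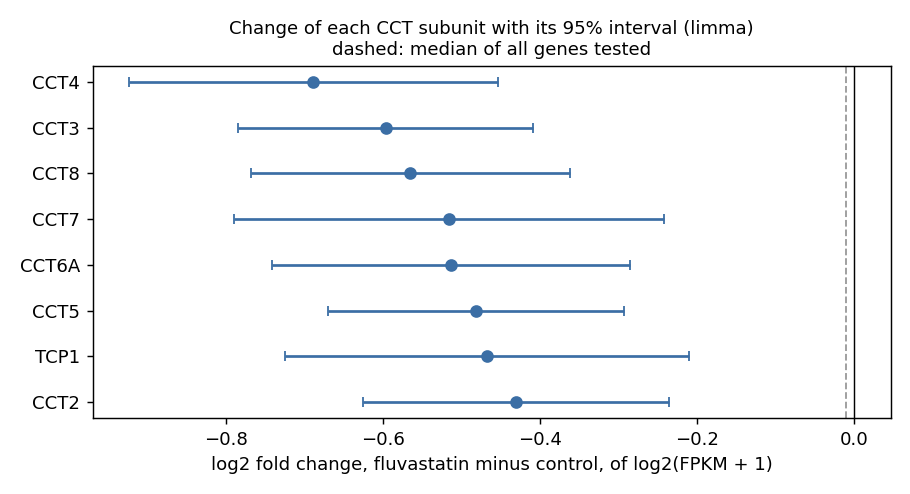
Log2 fold change of each subunit gene, fluvastatin minus control on log2(FPKM + 1), with its 95% interval from limma (horizontal axis). The estimates run from -0.69 for CCT4 to -0.43 for CCT2, every interval lies below 0 (solid line) and below the median of all genes (dashed line, -0.01), and the intervals overlap each other.

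Since a complete ring takes up the subunits in equal numbers, the balance between the 8 transcripts was examined within each library. CCT7 and CCT5 ranked first and second and CCT8 last in all 6 libraries, and the highest gene was 2.24 to 2.53 times the lowest. Between those ends the order was loose. In the controls CCT3 and CCT4, CCT4 and CCT6A, and CCT2 and TCP1 were neighbours in rank with overlapping ranges, while CCT6A and CCT2 were apart. In the fluvastatin libraries CCT3, CCT6A, CCT2, CCT4 and TCP1 followed each other with overlapping ranges at every step, at means of 246, 239, 228, 222 and 219 FPKM. CCT7 and CCT5 also overlapped there, although CCT7 was higher in 3 of 3 libraries.

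CCT4 took place 3 or 4 in each control and place 5, 6 or 7 in each fluvastatin library. As a share of the summed FPKM of the 8 genes, which is free of any scaling between libraries, CCT4 made up 12.5%, 12.0% and 12.2% in the controls and 10.7%, 11.3% and 10.8% with fluvastatin. The groups did not overlap and differed by -1.28 percentage points (exact permutation test, two-sided, p = 0.1, adjusted over 8 subunits 0.4). CCT2 went the other way, from 10.5% ± 0.314 to 11.2% ± 0.359 (SD, n = 3), also without overlap (exact permutation p = 0.1, adjusted 0.4). The shares of the other 6 subunits overlapped between the groups, with exact permutation p between 0.3 and 0.8. CCT8 differed by -0.203 points and CCT7, whose fluvastatin libraries spread from 17.5% to 19.7%, by 0.207 points. With 3 libraries against 3 the smallest p this test can give is 0.1, so no shift in balance could pass the threshold.

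**Figure D3:**
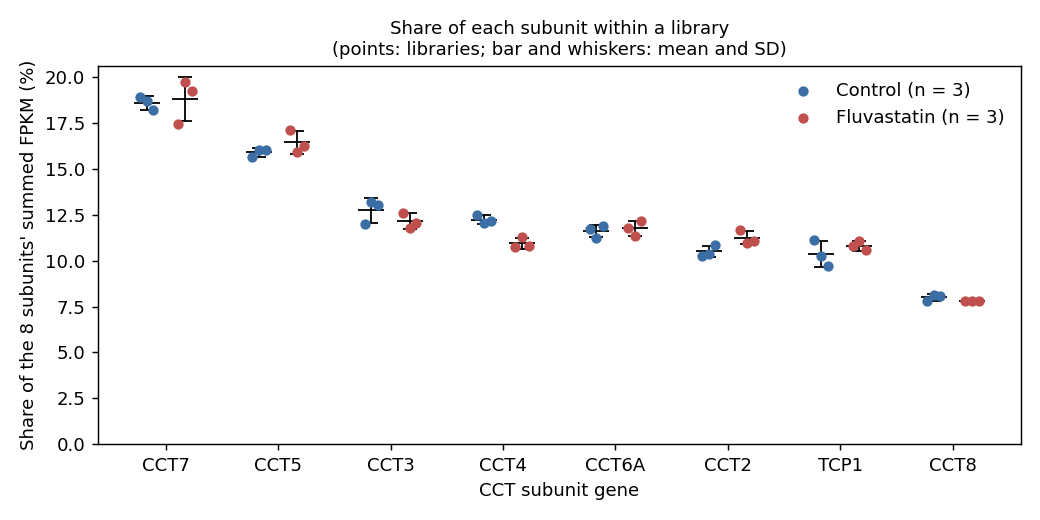
Share of each subunit gene in the summed FPKM of the 8 genes of a library, in percent (vertical axis), for the control (blue) and fluvastatin (red) libraries, with mean and SD. CCT4 is lower and CCT2 higher with fluvastatin without overlap, and the other 6 subunits overlap.

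The listed levels of copies of the subunit genes were low. How reads that match both a subunit and a copy were assigned is not given, so their part in the subunit values is unknown. Of 10 processed or other pseudogenes named after a subunit, 2 exceeded 1 FPKM in any library, CCT6P1 with at most 3.39 FPKM and CCT6P3 with at most 1.03 FPKM, and no pseudogene reached more than 1.32% of its subunit. CCT6P1 was at 2.27, 2.81 and 3.06 FPKM in the controls and 2.44, 2.82 and 3.39 FPKM with fluvastatin, so its groups overlapped. CCT6B, a relative of CCT6A known from testis, was below 1 FPKM in every library, at 0.412 ± 0.235 and 0.377 ± 0.220 FPKM (SD, n = 3), and was not tested.

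The genes that start beside a subunit gene on the opposite strand were not called. Limma called 0 of these 5 neighbours, which were chosen by position, and 1 had an unadjusted p below 0.05. Of all genes tested 27.7% were called in either direction, so most genes were not called either. COMMD1, a copper homeostasis and endosomal sorting gene whose start lies 80 bases from that of CCT4 and which overlaps it by 81 bases, was at 18.8, 17.3 and 18.8 FPKM in the controls and 17.3, 18.5 and 18.3 FPKM with fluvastatin (log2 fold change -0.02, 95% interval -0.22 to 0.18, adjusted p = 0.883). FAM173B, which starts 24 bases from CCT5, was at 5.72 ± 0.558 and 6.10 ± 0.439 FPKM (SD, n = 3; limma adjusted p = 0.588). MRPL18, a mitochondrial ribosomal protein gene on the far side of the 62 bases printed for TCP1, was at 50.9 ± 3.65 and 45.0 ± 5.50 FPKM (SD, n = 3; limma adjusted p = 0.297). In these 3 pairs the ratio of subunit to neighbour was lower in every fluvastatin library than in every control, by 0.67, 0.58 and 0.29 on the log2 scale (exact permutation p = 0.1 each, the smallest possible, unadjusted over 5 pairs). The other 2 ratios overlapped. Each ratio carries the subunit's own fall, so a lower ratio is no separate result about the pair. Ratios to other uncalled genes were not examined. PSPH, a serine synthesis phosphatase that starts 26 bases from CCT6A, was at 24.1, 28.6 and 35.8 FPKM in the controls and at 21.3, 21.1 and 21.2 FPKM with fluvastatin (adjusted p = 0.0636 in limma). PSPH passed without control 0 (0.0290), with a filter of 5 FPKM on the mean (0.0467), among protein-coding genes only (0.0358) and in the trended, robust variance model (0.0372), over a range of up to 0.615. PRADC1, which starts 182 bases from CCT7, was at 9.07 ± 0.908 and 7.36 ± 0.844 FPKM (SD, n = 3; limma adjusted p = 0.130). At its other end TCP1 overlaps 558 bases of ACAT2, an acetyl-CoA acetyltransferase gene on the opposite strand, which fell 1.38-fold (log2 fold change -0.45 ± 0.11, adjusted p = 0.0244). The ACAT2 call was lost without control 1 (0.0769) or 2 (0.0597), without fluvastatin 0 (0.0754) or 2 (0.0686), and with depth in the model (0.166). The strand setting of the counting was not given, so reads in that overlap cannot be assigned.

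**Figure D4:**
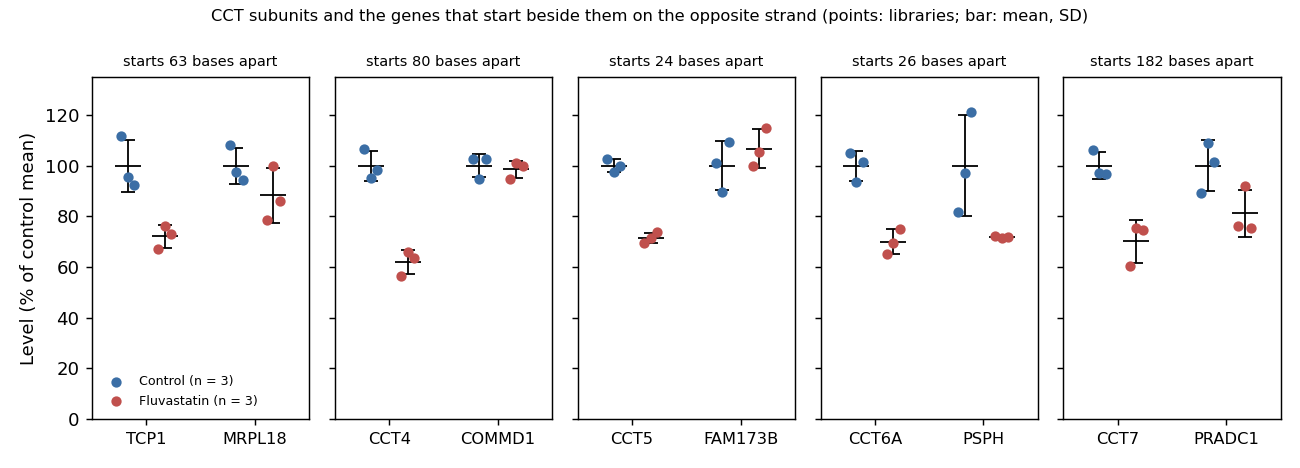
Levels of 5 subunit genes and of the gene that starts beside each on the opposite strand, in percent of the gene's own control mean (vertical axis), for the control (blue) and fluvastatin (red) libraries, with mean and SD. COMMD1 and FAM173B stay near their control level while CCT4 and CCT5 do not overlap with theirs, and PSPH and CCT6A are both lower.

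The partners that load and assist the chaperonin were mostly not called, as were most genes tested, of which 27.7% were called in either direction. Of 6 prefoldin subunits limma called 0, also 0 at an unadjusted p below 0.05, and their median log2 fold change was 0.00. PFDN5 was at 234 ± 13.9 and 265 ± 28.0 FPKM, PFDN2 at 167 ± 4.26 and 169 ± 5.88 FPKM, and PFDN6 at 91.7 ± 7.32 and 94.3 ± 20.6 FPKM (SD, n = 3). VBP1, which encodes prefoldin 3, had the lowest estimate, with 93.6 ± 6.43 FPKM in the controls and 81.1 ± 8.80 FPKM with fluvastatin (-0.21 ± 0.11 on the log2 scale, adjusted p = 0.216 in limma). PFDN4 and PFDN1 had log2 fold changes of -0.01 and -0.05. Of the phosducin-like cofactors PDCL, PDCL3 and TXNDC9, 0 of 3 were called, also at an unadjusted p below 0.05, and PDCL was at 15.7 ± 0.588 and 15.4 ± 0.288 FPKM. PDCL2 was listed at 0 in the controls, reached at most 0.236 FPKM and was not tested. In the prefoldin-like and R2TP complex, which assembles large protein complexes with HSP90, 2 of 9 fell and 0 rose, a share of 22.2% that fell against 13.6% of all genes tested, a difference of less than 1 gene. RUVBL1, an AAA+ ATPase, fell 1.75-fold from 83.8 ± 7.02 to 47.9 ± 2.04 FPKM, and its partner RUVBL2 fell 1.32-fold, with adjusted p = 0.0441. RUVBL2 lost its call without control 0 (0.118) or 1 (0.121) or without fluvastatin 0 (0.125) or 2 (0.126), over a range of up to 0.221. With all libraries kept, it was also lost with a pseudocount of 0.1 (0.05537), without a filter (0.0751) and with the replicate number as a block (0.05023). UXT and PIH1D1, of the same complex, had log2 fold changes of -0.08 and -0.12 and were not called.

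The mitochondrial chaperonin, a separate ring with its own cochaperonin, fell as well. HSPD1, which encodes HSP60, was at 512, 459 and 483 FPKM in the controls and at 260.5, 272 and 302 FPKM with fluvastatin, 1.74-fold lower (log2 fold change -0.80 ± 0.10, adjusted p = 0.00242). HSPE1, which encodes its lid HSP10, was at 194, 184 and 197 FPKM and then at 104, 112 and 118 FPKM, 1.72-fold lower (adjusted p = 0.00197). Both pairs of groups were apart, and with depth in the model neither call held (adjusted p = 0.158 and 0.140). The chaperonin-like genes MKKS, BBS10 and BBS12, whose products work with CCT on the BBSome of the cilium, were not called, with log2 fold changes of -0.36, -0.11 and 0.31. MKKS was lower without overlap and passed in the limma fit of protein-coding genes only (adjusted p = 0.0472). BBS12 was higher without overlap. Of all genes tested 22.9% were lower and 21.9% higher without overlap. Of the 5 genes tested in this list, 2 fell (HSPD1 and HSPE1), a share of 40.0% against 13.6% of all genes tested.

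Among 24 genes of the cytosolic HSP70 and HSP90 system, 11 fell, 1 rose and 12 were not called, with a median log2 fold change of -0.28. The list has 45.8% that fell, against 13.6% of all genes tested. With 1 library left out, 9 to 11 fell and 1 rose. FKBP4, an HSP90-binding immunophilin, fell 2.06-fold from 89.4 ± 7.04 to 43.4 ± 2.29 FPKM (SD, n = 3; limma adjusted p = 0.00114). HSPH1, an HSP110 nucleotide exchange factor, fell 2.22-fold from 157 ± 22.5 to 70.9 ± 1.43 FPKM, and HSP90AA1, the inducible cytosolic HSP90, fell 1.89-fold from 1008 ± 85.9 to 533 ± 29.4 FPKM. HSPA8, the constitutive HSP70 that works with CCT, was lower in every fluvastatin library, at 1375 ± 290.2 and 961 ± 84.2 FPKM (SD, n = 3), and did not pass (adjusted p = 0.0678 in limma, over a range of 0.0229 to 0.317 across settings). CDC37, the kinase adaptor of HSP90, was at 129 ± 2.43 and 129.6 ± 5.88 FPKM. Also not called, and named after their values were seen, were HSPA1A, HSPA1B, DNAJB1 and BAG3. Their log2 fold changes were -0.11, -0.14, 0.03 and 0.09. The gene that rose, HSPB1, a small heat shock protein named after its value was seen, increased 1.51-fold. HSF1, the heat shock transcription factor, also named after its value was seen, was at 64.9 ± 0.344 and 65.1 ± 7.18 FPKM (log2 fold change -0.00, 95% interval -0.24 to 0.24).

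**Figure D5:**
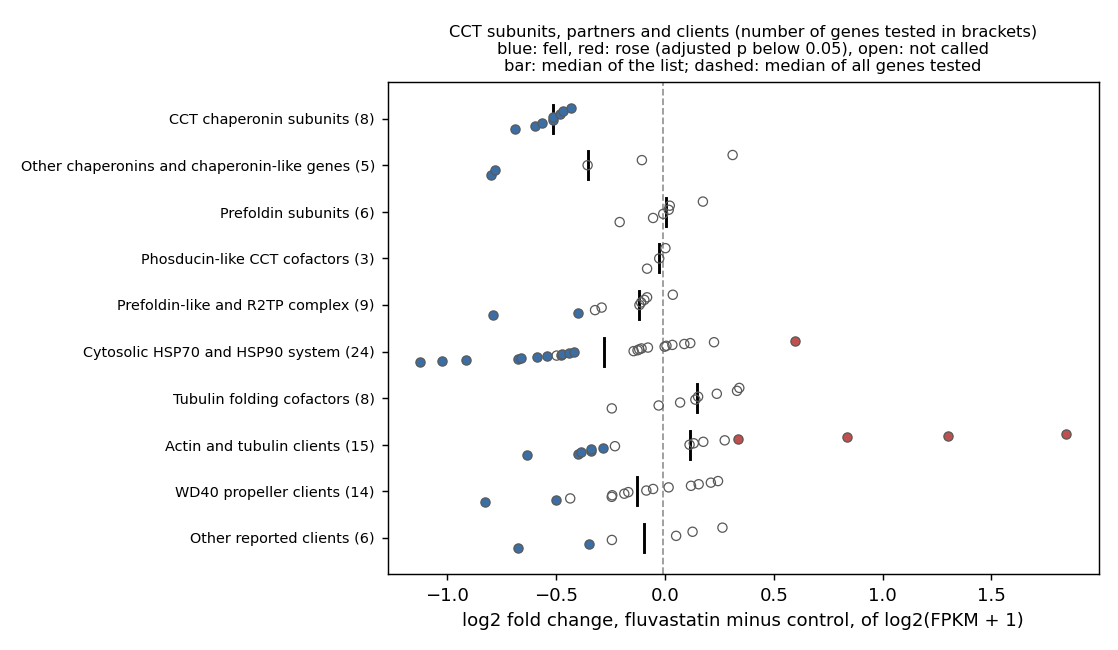
Log2 fold change, fluvastatin minus control on log2(FPKM + 1) (horizontal axis), of the tested genes of each list, coloured where limma called them (blue fell, red rose, open not called), with the list's median as a bar and the median of all genes as a dashed line. All 8 CCT subunits are blue within a narrow band, no prefoldin subunit or phosducin-like cofactor is coloured, and the actin and tubulin genes spread to both sides.

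The clients of the chaperonin did not share 1 direction. Of 15 actin, actin-related and tubulin genes tested, 6 fell, 4 rose and 5 were not called. Of all genes tested 13.6% fell and 14.1% rose. The median log2 fold change of the list, which counts each gene once, was 0.11, while its most abundant genes fell. With 1 library left out, 1 to 4 fell and 3 or 4 rose. The calls of ACTB and TUBB, named here for that reason after their values were seen, were lost whichever library was left out (adjusted p = 0.0612 to 0.121 for ACTB and 0.0533 to 0.0960 for TUBB, and up to 0.374 and 0.373 over all settings). ACTG1 kept its call in each of those fits. ACTG1, cytoplasmic gamma-actin, fell 1.55-fold from 1437 ± 117 to 926 ± 66.0 FPKM (SD, n = 3; limma adjusted p = 0.00679). Mean ACTB went from 2340 to 1918 FPKM and mean TUBB from 781 to 618 FPKM. The other genes that fell, also named after their values were seen, were TUBA1B (means 905.1 and 692.5 FPKM), TUBA1C (407.4 and 321.9) and TUBG1 (55.85 and 42.12). Each lost its call in at least 1 fit with a library left out (limma adjusted p up to 0.07395, 0.09608 and 0.06082). In contrast TUBA1A, an alpha-tubulin, rose 3.68-fold from 25.9 ± 2.54 to 95.3 ± 5.55 FPKM, and TUBB2A, a beta-tubulin, rose 2.85-fold from 3.57 ± 0.648 to 10.2 ± 0.153 FPKM. The other genes that rose, named after their values were seen, were TUBB3, from 87.7 ± 10.5 to 158 ± 23.1 FPKM, and ACTR3 of the ARP2/3 complex, 1.26-fold. ACTR3 (adjusted p = 0.0329) lost its call without control 1 (0.0978) or 2 (0.0767) or without fluvastatin 0 (0.0684), 1 (0.0891) or 2 (0.0973), over a range of up to 0.452. It was also lost with the replicate number as a block (0.08029). The beta-tubulins TUBB4B and TUBB6 were not called, at 333 ± 33.7 and 283 ± 5.21 FPKM for TUBB4B and 226 ± 15.9 and 244 ± 12.4 FPKM for TUBB6. Summed over the list, 6582 to 7184 FPKM were measured in the controls and 5514 to 5771 FPKM with fluvastatin. Of 8 genes listed as tubulin cofactors, which take over tubulin after CCT, limma called 0, and 2 had an unadjusted p below 0.05. These were TBCB (means 128.5 and 161.1 FPKM) and TBCC (13.71 and 16.37 FPKM), named after their values were seen. Both were higher without overlap, as were 21.9% of all genes tested. The median log2 fold change of the list was 0.15. The list's sum was 514.7 to 532.1 FPKM in the controls and 564.6 to 599.7 FPKM with fluvastatin. Without control 0, 1 gene rose, and without control 2, 1 fell. The share called in either direction was 27.7% over all genes tested. The list holds TBCK, a TBC-domain kinase gene that shares only the prefix of the name and is no such cofactor. ARL2 was at 151 ± 12.2 and 167 ± 16.2 FPKM and TBCA was at 151 ± 17.3 and 158 ± 11.9 FPKM (SD, n = 3).

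Of 14 WD40 propeller clients 2 fell and 0 rose, a share of 14.3% that fell against 13.6% of all genes tested. CDC20, an activator of the anaphase-promoting complex, fell 1.77-fold from 288 ± 24.8 to 163 ± 19.3 FPKM (SD, n = 3; limma adjusted p = 0.00474), and WRAP53, a telomerase RNP factor, fell 1.47-fold (adjusted p = 0.0300). WRAP53 lost its call without any 1 of control 0 and 1 and the 3 fluvastatin libraries, with adjusted p up to 0.0813 there and up to 0.392 across all settings. With all libraries kept, it was also lost without a filter (0.06038) and with the replicate number as a block (0.05014). The G protein beta subunits GNB1 and GNB2, which need CCT and PDCL, were at 234 ± 16.3 and 254 ± 12.2 FPKM and at 183 ± 22.4 and 216 ± 17.3 FPKM and were not called. Of 6 other reported clients 2 fell, a share of 33.3% against 13.6% of all genes tested. They were the mitotic kinase PLK1, 1.62-fold (adjusted p = 0.0132; 0.0502 without fluvastatin 0, range up to 0.192), and the deacetylase HDAC3, 1.28-fold (adjusted p = 0.0468). HDAC3 lost its call without control 0 (0.101) or 1 (0.132) and without fluvastatin 0 (0.0774), 1 (0.114) or 2 (0.131), over a range of up to 0.309. With all libraries kept, its call was also lost with a pseudocount of 0.1 (0.05565), without a filter (0.06625) and with the replicate number as a block (0.06968). The same held for trimmed mean of M-values scaling (0.05479) and quantile normalization (0.06737). The tumour suppressor VHL had a log2 fold change of 0.13 and was not called.

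The genes whose pattern over the 6 libraries was most like the mean of the 8 subunits were found by the root mean square distance of centred log2(FPKM + 1) values, among 10168 other genes that averaged 5 FPKM or more. They were ILF2, a double-stranded RNA-binding protein (distance 0.02), GOLM1, a Golgi membrane protein (0.02), HNRNPL, a splicing regulator (0.03), ABHD10, a mitochondrial hydrolase (0.03), TOMM22, a receptor of the mitochondrial import pore (0.03), and NME1, a nucleoside diphosphate kinase (0.03). ILF2 was at 215, 198 and 208 FPKM in the controls and 134, 147 and 144 FPKM with fluvastatin. Of the subunits, which enter their own mean, CCT8 lay at 0.02, with 2 of those other genes closer, and CCT4 at 0.08, with 272 closer.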

How the data were processed

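STAR, Cufflinks and Cuffdiff on hg38 are named per the submitters' processing notes. Their versions, the annotation, the strand setting and any rescaling by the authors are not given in the sources used here. The deposited values were read as the authors' FPKM, since the table itself states no unit. Gene positions came from GENCODE release 29 (29542 of 29790 identifiers matched without version). Genes reaching 1 FPKM in 3 or more libraries entered the test, on log2(FPKM + 1), which understates changes of low genes, with limma 3.58.1 in R 4.3.3, two-sided, without a replicate block, and the fit was tested on simulated data. Relative depth came from the commonest ratio between libraries' values among 11289 genes with a 0. Of these, 1565 to 2013 were above 0 in both control 0 and the library compared, and 81 to 134 shared the commonest ratio. Deeper libraries carry less counting error, and counts are unknown. The members and lists were chosen with earlier results of these data known. Named genes were the 8 subunits, all prefoldin, phosducin-like and chaperonin-like genes, up to 3 called and 2 uncalled genes of each other list, pseudogenes above 1 FPKM and the 6 most alike profiles. Of the named genes, 1 is not reported here. Alternatives covered the pseudocount, filters, scaling, variance model, block, gene type, depth and each library left out.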

Additional observations from a re-analysis of the deposited data

How the results depend on the processing

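The count of 8 subunits that fell was also 8 without a filter, with a filter of 5 FPKM on the mean, with a pseudocount of 0.1, trimmed mean of M-values scaling, quantile normalization, trend and robust on, and protein-coding genes only. It was 6 to 8 with each library left out, and 0 with relative depth as a covariate, where 61 of all genes passed against 3971. All genes called numbered 2340 to 3416 with each library left out. The median log2 fold change of the subunits was -0.56 to -0.46, the summed level 1.396-fold to 1.474-fold lower, and the CCT4 share -1.46 to -1.15 points different in those fits. With the replicate number as a block, 6 subunits (without TCP1, adjusted p = 0.0601, and CCT7, 0.0536) and 3154 genes passed. The correlation of same-numbered deviations was -0.002, 0.085 and 0.084, and that of differently numbered ones -0.136 to 0.058. All were small and the numbers were not taken as pairs, but these values cannot settle whether they are. The 48 subunit fits with a library left out lost 6 calls and changed no sign (log2 fold changes -0.73 to -0.38). Among 27 other named genes called, which leave out ACTB, TUBB, TUBA1B, TUBA1C and TUBG1, 62 fits lost the call and 343 kept it. Among 33 not called, which leave out TBCB, TBCC, HSPA1A, HSPA1B, DNAJB1 and BAG3, 8 fits gained the call and 486 did not. No called change turned direction. Calls were lost both with a library left out and in fits that kept every library, and the cause was not tested. FPKM without counts gave no counting error for single values.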
